A study of Mus musculus with 22 samples.

Results

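Proteins that handle extracellular ATP, adenosine and NAD are described here by the messenger RNA of 9 genes in regulatory T cells (Tregs) of mouse visceral fat. The genes were picked by name from the 55011 rows of the count table: the ADP-ribosyltransferase Art2b, the ATP receptors P2rx7 and P2rx4, the ectonucleotidases Entpd1 and Nt5e, the adenosine receptor Adora2a, the adenosine deaminase Ada with its surface partner Dpp4, and the NAD glycohydrolase Cd38. They were listed by function, but a fall of Art2b in the KO and a rise of Nt5e at 16 weeks had been seen when the list was drawn up. Those values are therefore given as a description with no test. They are Art2b in every comparison of KO with WT and Nt5e in those made at or against 16 weeks. The average of the KO differences over the diets also holds 16 week libraries, and Nt5e was tested there.

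Each of the 22 libraries came from 1000 YFP+ cells, sorted in 2 rounds at the onset of light (ZT0) from male mice of the strain C57BL/6 Foxp3.Cre-YFP, which all groups share. WT and KO refer to Bmal1, the circadian clock factor encoded by Arntl. The lean groups (LFD, 3 WT and 3 KO libraries) and the groups with 4 weeks of high fat diet (HFD, 3 and 3) were 18 weeks old, and those with 16 weeks of high fat diet (3 and 3) were 30 weeks old. High fat feeding followed 14 weeks of lean diet. The transfer groups (2 WT and 2 KO libraries) were sorted 9 weeks after adoptive transfer from mice 20 weeks old at sacrifice, and the sources used here do not describe the hosts. The labels do not name the Bmal1 allele, and the Arntl count does not check them, since the deleted part is not given. Whether replicates came from different mice is not stated, and p-values then reflect only how far libraries differed, which may be technical. Values are CPM, the count relative to a standard library size, on a single scale over the 22 libraries made with TMM, a method that corrects totals for a few abundant genes.

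The 18 diet libraries held 1955940 to 3467019 counts each and the 4 transfer libraries 4814337 to 5990319. A count of 0 allows a level of 3 counts, equal to 0.842 to 1.6 CPM in a diet library and 0.542 to 0.662 CPM in a transfer library, for counting error only. The Treg factor Foxp3 was lowest in lean KO, at 487 ± 28.7 CPM (SD, n = 3), and highest in transferred WT, at 660 ± 39.4 CPM (SD, n = 2). Among markers of other cells, 6 stromal genes summed to 1.3 to 10.6 CPM in every library but the first 16 week KO library, at 119 CPM, and 6 cytotoxic T and NK genes to 40.7 to 670 CPM. In bulk libraries, fewer cells of a type and less RNA per cell cannot be told apart.

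ATP that leaves damaged or activated cells opens the ion channels P2X7 and P2X4. CD39, the product of Entpd1, breaks ATP and ADP down to AMP, and CD73, the product of Nt5e, turns AMP into adenosine, which signals through the receptor encoded by Adora2a and is removed by adenosine deaminase (Ada), an enzyme that CD26 (Dpp4) tethers to the cell surface. CD39 and CD73 on Tregs are known for making adenosine that restrains other T cells. NAD enters the same network through ARTC2.2, the product of Art2b, which transfers ADP-ribose from NAD to P2X7 and so gates that channel on mouse T cells, while CD38 uses up NAD.

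Art2b lies on mm10 chromosome 7, minus strand, from 101576970 to 101585600. Its annotated neighbour copy, called Art2a in the count table and Art2a-ps, a polymorphic pseudogene, in GENCODE M21, lies 16104 bases away from 101552453 to 101560865. Because reads were pairs of 38 bases, the share of sequence that could not separate the copies was computed. Of 2814 windows of 38 exonic bases in Art2b, 91.6% were found in no other gene, and 198 (7.0%) were also in Art2a-ps. These 198 windows were 16.2% of the 1220 in Art2a-ps, so a small part of either count could come from the other copy. A stretch of 120 bases within 1 coding exon shows how they can be told apart, at chr7:101580361-101580480 for Art2b and chr7:101555000-101555119 for Art2a-ps (mm10, minus strand). Capitals mark the 20 bases that differ.
Art2b: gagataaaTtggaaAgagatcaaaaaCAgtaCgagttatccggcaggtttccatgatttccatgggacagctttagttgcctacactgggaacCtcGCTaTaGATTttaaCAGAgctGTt
Art2a-ps: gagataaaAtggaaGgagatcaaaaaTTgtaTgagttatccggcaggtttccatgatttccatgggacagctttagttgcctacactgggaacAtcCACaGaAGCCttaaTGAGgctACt

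Art2b RNA was lower in KO than in WT libraries in every setting, as a description of the values that placed it on the list. On lean diet the WT libraries held 33.9, 55.6 and 47 CPM and the KO libraries 27.1, 12.8 and 7.81 CPM. With high fat diet for 4 weeks they held 81.1, 42.3 and 65.2 CPM against 15.1, 17.5 and 14.1 CPM, and after 16 weeks 88.5, 49.6 and 81.6 CPM against 45, 23.2 and 36.5 CPM. In each diet the highest KO library stayed below the lowest WT library. The log2 fold change was -1.48 ± 0.36 (SE) on lean diet, -2.0 ± 0.35 after 4 weeks of high fat and -1.07 ± 0.33 after 16. Averaged over the diets it was -1.52 ± 0.20, or 2.86-fold lower. Over all genes tested, 0.094% were called lower in KO in that average, and nothing is read from this for Art2b. With 1 library left out the lean value ranged from -2.15, without the first lean KO library, to -1.15.

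After transfer Art2b was low in both genotypes. The WT libraries held 34 and 17 counts (7.5 and 3.07 CPM) and the KO libraries 4 and 16 counts (0.862 and 3.03 CPM). Both KO libraries lay below both WT libraries, by as little as 1 count. The log2 difference of -1.43 ± 0.93 rested on single libraries: it was -0.66 without the first WT library and -2.58 without the second KO library. Against its value on lean diet, the KO difference of Art2b was shifted on the log2 scale by -0.52 ± 0.51 at 4 weeks, by 0.41 ± 0.49 at 16 weeks and by 0.12 ± 0.88 after transfer. These shifts are built from the values that placed Art2b on the list and are given with no test.

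Ordered by mean, Art2b ran from 73.2 ± 20.8 CPM (SD, n = 3) in WT at 16 weeks through 62.9 ± 19.5 in WT at 4 weeks, 45.5 ± 10.9 in lean WT, 34.9 ± 11 in KO at 16 weeks, 15.9 ± 10 in lean KO and 15.6 ± 1.77 in KO at 4 weeks to 5.29 ± 3.13 (n = 2) in transferred WT and 1.94 ± 1.53 in transferred KO. Neighbours in that order among the WT diet groups, between lean WT and KO at 16 weeks, and between lean KO and KO at 4 weeks were closer than the larger of their SDs.

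**Figure D1:**
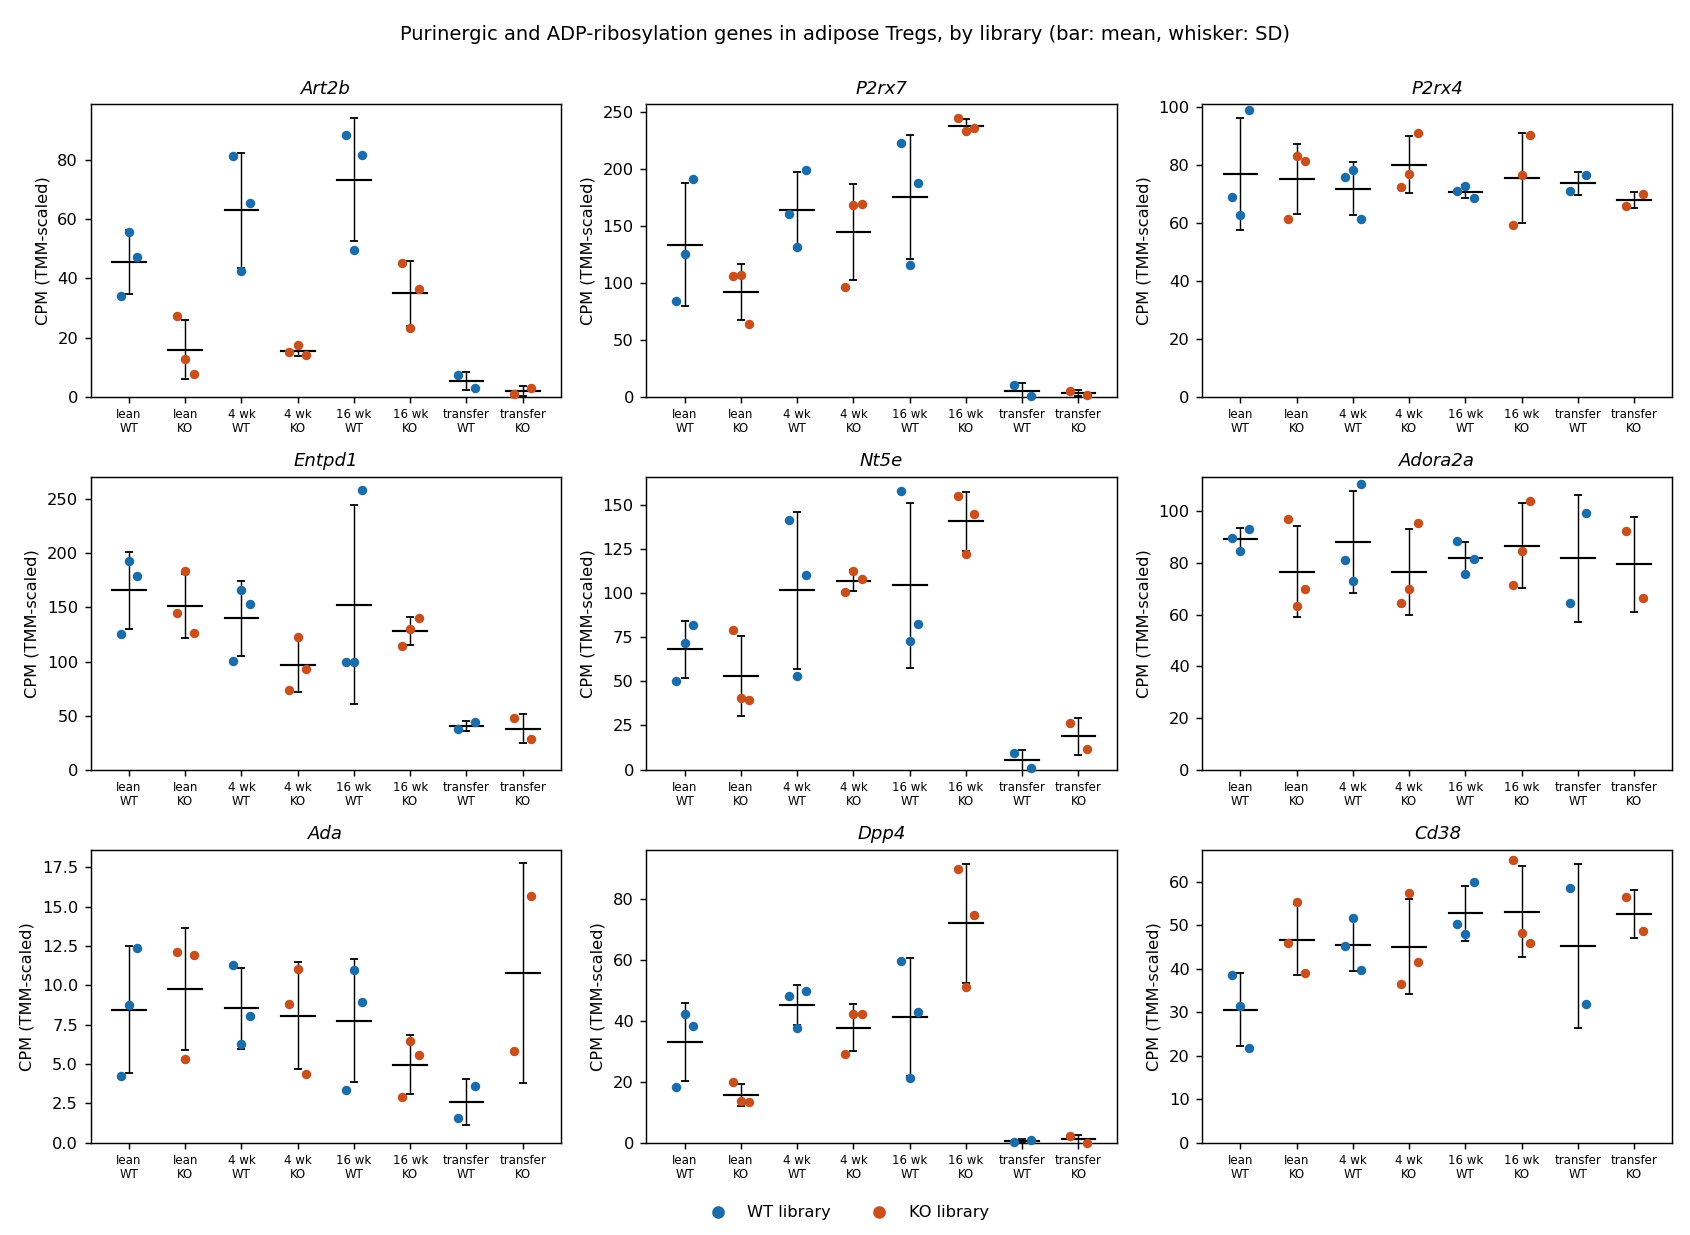
TMM-scaled CPM (y axes, starting at 0) of the 9 genes in each library, by diet or transfer and genotype (x axes), with the group mean as a bar and the SD as a whisker. Art2b is lower in KO than in WT libraries of each setting, Art2b, P2rx7, Entpd1, Nt5e and Dpp4 drop in the 4 transfer libraries, and P2rx4 and Adora2a stay at about the same level in all 8 groups.

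The neighbour Art2a did not follow Art2b in every setting. On lean diet its WT libraries held 10.8, 12.1 and 16.1 CPM and its KO libraries 11.4, 2.66 and 0.459 CPM. At 16 weeks the means were 17.2 ± 1.28 CPM in WT and 17.4 ± 4.92 in KO (SD, n = 3 each). The edgeR log2 difference of KO from WT was -1.34 ± 0.56 on lean diet (adjusted p = 0.627), -1.71 ± 0.55 with 4 weeks of high fat (adjusted p = 0.999) and 0.02 ± 0.49 with 16 (adjusted p = 0.998). None passed the threshold of 0.05. After transfer the WT libraries still held 12.1 and 10.8 CPM of Art2a and the KO libraries 4.95 and 3.22 CPM. Transferred cells thus kept Art2a near the lean level (-0.25 ± 0.42, adjusted p = 0.734) while Art2b dropped. Over the 18 diet libraries Art2a was nevertheless the gene most like Art2b among 9438 compared, with a Pearson r of 0.85 of log2 CPM, followed by the REV-ERB gene Nr1d2 at 0.80, Aldh4a1 and Cblb at 0.78 and Socs5 at 0.77. These points share libraries and groups, and no p is given. They also include the fall of Art2b in the KO for which it was listed, so the r values are no separate result.

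**Figure D2:**
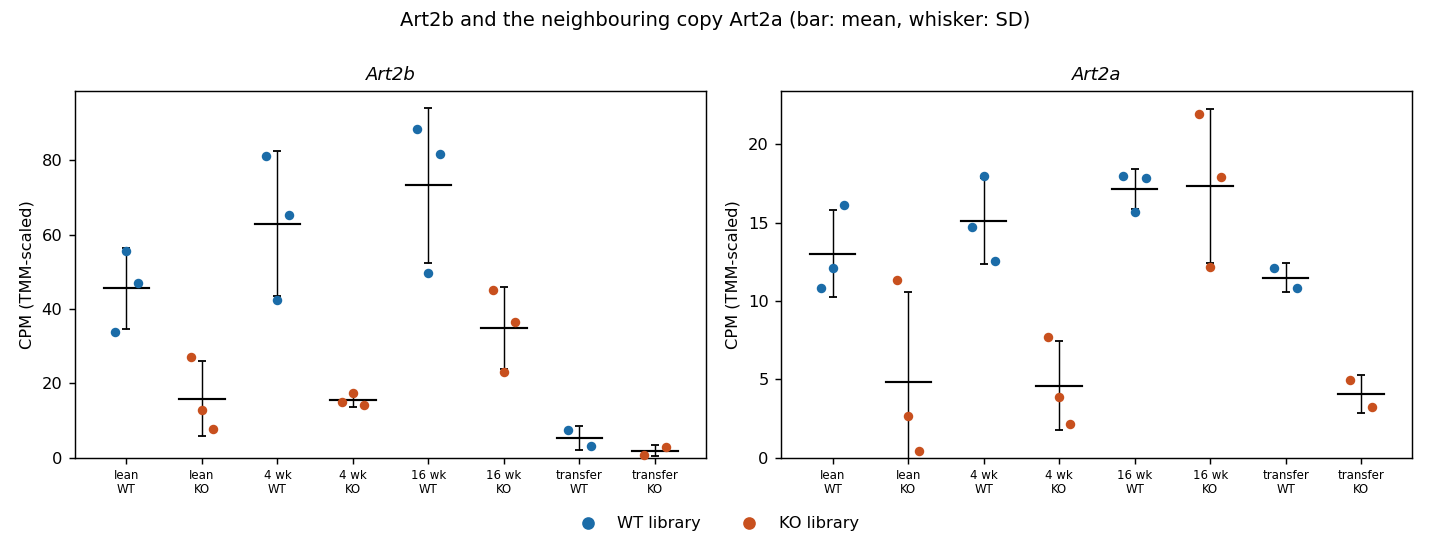
TMM-scaled CPM (y axes, starting at 0) of Art2b and of its neighbour copy Art2a in each library, by diet or transfer and genotype (x axes), with means as bars and SDs as whiskers. At 16 weeks Art2b is lower in KO while Art2a has means of 17.2 and 17.4 CPM, and after transfer WT libraries keep 10.8 to 12.1 CPM of Art2a.

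Art2b and Arntl share chromosome 7, 11.6 Mb apart. Among 28 genes tested within 1 Mb of Art2b, edgeR called none different between KO and WT averaged over the diets, with 7 at an unadjusted p under 0.05. The share of all genes at that unadjusted p was not computed, so nothing is read from such counts, here or below. Of 59 genes tested between Art2b and Arntl, 6 (10.2%) were lower in KO, namely Trim12a, Trim5, Trim30d, Trim34a, Gm1966 and Gm4759, and none was higher. The Trim genes are close paralogues, between which short reads may be split with uncertainty. The share of all genes called lower in KO was given above as 0.094%. Whether position plays a part in the Art2b values was not tested.

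Of the members tested between KO and WT, which never include Art2b and leave out Nt5e at 16 weeks, none passed the threshold. Among them edgeR called 0 of 8 on lean diet (2 with an unadjusted p under 0.05), 0 of 8 with 4 weeks of high fat (0 so), 0 of 7 with 16 (1 so) and 0 of 8 for the average (0 so), and DESeq2 called 0 in each. Over all genes tested, edgeR called 0.0427% on lean diet, 0.0684% with 4 weeks of high fat, 0.0427% with 16 weeks and 0.18% for the average. These backgrounds are so low that a count of 0 among 7 or 8 genes is no sign of stability. The 8 of the average include Nt5e, whose values at 16 weeks helped place it on the list, so nothing is read from it there.

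After transfer 0 of 7 tested members were called (2 at an unadjusted p under 0.05, DESeq2 0, background 0.171%), and Dpp4 did not pass the low-count filter there. Nt5e was at 9.49 and 1.08 CPM in WT and at 26.3 and 11.5 CPM in KO, a log2 difference of 1.85 ± 0.82 with an adjusted p of 0.764 from edgeR. It was 4.08 without the first WT library, 0.98 without the second and 1.12 without the first KO library. Ada was at 1.54 and 3.61 CPM in WT and at 5.82 and 15.7 CPM in KO (2.02 ± 0.74, adjusted p = 0.694). Its value was 1.15 without the second KO library. Both KO libraries lay above both WT libraries for these 2 genes. With 2 libraries against 2 such an order is easily met, and its share over all genes was not computed. P2rx4 showed it in the other direction, with a log2 difference of only -0.13 ± 0.18 (edgeR, adjusted p = 0.972). Nothing is therefore read from this order. Neither the Nt5e nor the Ada difference passed the threshold once p was adjusted for all genes tested.

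The 9 genes separated into groups when transferred cells were set against resident lean cells. In this comparison 5 of the 9 fell and none rose, while over all 12523 genes tested edgeR called 16.2%, with 8.81% lower. Of the 5, Dpp4 did not pass the low-count filter in the transfer libraries alone, and entered the test through the resident ones. Its place among the 5 is therefore only a description. The transfer libraries also differ from the lean ones in depth, in age (20 against 18 weeks) and in host, and these cannot be told apart from the transfer.

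P2rx7, the ATP-gated channel that ARTC2.2 modifies, fell in transferred cells. Resident lean WT libraries held 84.3, 125 and 191 CPM and KO libraries 106, 107 and 63.9 CPM. Transferred WT libraries held 9.93 and 0.542 CPM and transferred KO libraries 4.95 and 1.14 CPM, which is 45, 3, 23 and 6 counts. Every transfer library lay far below every lean library. The log2 fold change was -4.85 ± 0.42, or 28.7-fold lower (edgeR, adjusted p = 4.89e-08). With 1 library left out it ranged from -6.39 (without the first transferred WT library) to -4.34, and was -5.51 without the first transferred KO library.

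Its neighbour P2rx4, an ATP-gated channel 16111 bases downstream on chromosome 5 (P2rx7 from 122643911 to 122691432 and P2rx4 from 122707544 to 122729738, both plus strand, mm10), was at 65.9 to 76.4 CPM in the 4 transfer libraries and at 61.2 to 98.8 CPM in the 6 lean libraries. The groups overlapped, and the log2 difference was -0.10 ± 0.14 (edgeR, adjusted p = 0.685). In the 8 groups its means ran only from 67.9 to 80.1 CPM.

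Dpp4, whose product CD26 anchors adenosine deaminase, fell by a like amount. Lean WT libraries held 18.4, 42.2 and 38.5 CPM and lean KO libraries 19.8, 13.8 and 13.3 CPM. Transferred WT libraries held 1 and 5 counts (0.221 and 0.903 CPM), and transferred KO libraries 10 and 0 counts (2.15 and 0 CPM), where 0 allows up to 0.568 CPM. The log2 fold change was -4.81 ± 0.48, 28-fold lower (edgeR, adjusted p = 3.85e-07). With 1 library left out it ranged from -7.13 (without the first transferred KO library) to -4.27, and was -5.43 without the second transferred WT library. Dpp4 did not pass the low-count filter in the transfer libraries alone. It was tested here through its counts in the resident libraries, where it was high, so its p is only a description. Dpp4 lies on chromosome 2 from 62330073 to 62412231, minus strand, and shares 232 exonic bases with Gm13561 on the other strand, which this kit, not marking strand, cannot separate.

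The enzymes that turn ATP into adenosine were lower too. Entpd1 was at 126, 193 and 179 CPM in lean WT, at 144, 184 and 126 CPM in lean KO, at 37.5 and 43.9 CPM in transferred WT and at 47.4 and 28.6 CPM in transferred KO (-2.01 ± 0.25, 4.03-fold lower, adjusted p = 8.33e-06). Nt5e was at 50.4, 71.9 and 81.7 CPM in lean WT and at 78.8, 40.4 and 39.5 CPM in lean KO, against 1.08 to 26.3 CPM after transfer (-2.63 ± 0.38, 6.18-fold lower, adjusted p = 4.73e-05). With 1 library left out the Nt5e value ranged from -3.71, without the first transferred WT library, to -2.17. No transfer library reached the lowest lean library for either gene. Art2b, tested here because this comparison averages the genotypes, fell by 3.07 ± 0.37 on the log2 scale, or 8.37-fold (adjusted p = 5.72e-06).

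The receptor for the end product did not move with the enzymes. Adora2a was at 64.4 and 99.2 CPM in transferred WT, at 92.4 and 66.4 CPM in transferred KO and at 63.3 to 96.8 CPM in the lean libraries, and its log2 difference of -0.04 ± 0.16 had an adjusted p of 0.909. Cd38, at 31.8 to 58.5 CPM after transfer and 21.8 to 55.3 CPM before, differed by 0.36 ± 0.19 (adjusted p = 0.194). Ada, a low gene at 1.54 to 15.7 CPM after transfer and 4.24 to 12.3 CPM in lean libraries, differed by -0.78 ± 0.43 (adjusted p = 0.232). The transferred cells thus held less RNA for 5 surface proteins of this network and kept that for P2rx4, Adora2a and Cd38 within the range of the lean libraries or close to it.

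Genes that mark resting and adipose Tregs moved along with these changes. Of 6 resting T cell genes, 3 fell after transfer, and their summed level was 234 to 295 CPM in the transfer libraries against 423 to 692 CPM in lean ones. All 6 adipose Treg genes rose, with sums of 9470 to 10500 CPM against 3260 to 6290 CPM. Sums of 6 cytotoxic T and NK markers were 40.7 to 109 CPM against 153 to 369 CPM, with Cd8a at 0 in transferred WT and Klrb1c at 0 in transferred KO. The part of these shifts in the values of the 9 genes was not tested.

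**Figure D3:**
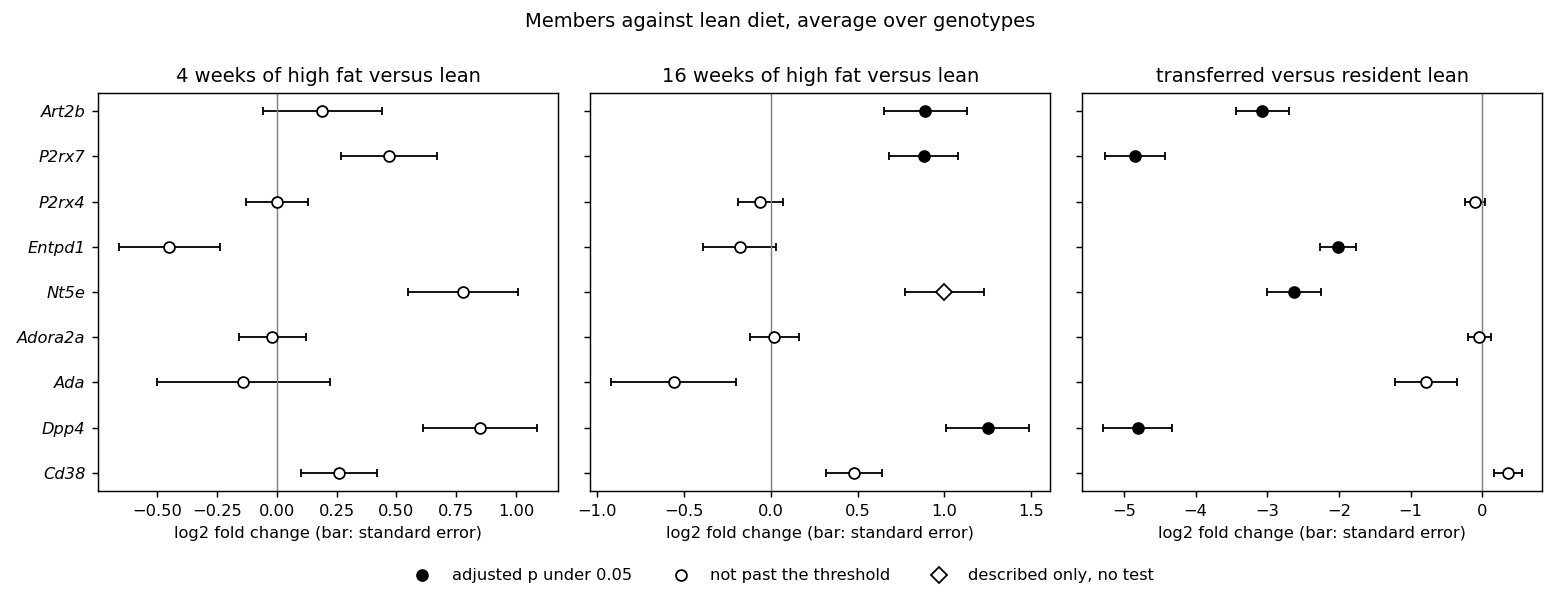
Log2 fold change against lean diet, averaged over genotypes (x axes, which differ in range between panels), with standard errors as bars, for the 9 genes (y axis) after 4 weeks of high fat diet, after 16 weeks and after transfer. Filled points passed an adjusted p of 0.05, open points did not, and the diamond for Nt5e at 16 weeks is a description with no test. For Dpp4 after transfer the p is only a description.

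After 16 weeks of high fat diet, 3 of the 8 members tested were higher than on lean diet, averaged over genotypes, and none was lower, while edgeR called 6.63% of the 11698 genes tested, with 2.92% higher. Age differs as well, 30 against 18 weeks, and cannot be told apart from diet. This comparison shares the lean libraries with that of transferred cells, and no likeness or contrast between them is given as a result.

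Dpp4 was at 59.8, 21.3 and 42.9 CPM in WT and at 90, 51.3 and 75 CPM in KO after 16 weeks, against 13.3 to 42.2 CPM in the lean libraries. Its rise was 1.25 ± 0.24 on the log2 scale, 2.38-fold (edgeR, adjusted p = 0.00258), and in KO alone every library at 16 weeks lay above every lean library. P2rx7 was at 222, 116 and 188 CPM in WT and at 244, 234 and 236 CPM in KO, a rise of 0.88 ± 0.20 (1.84-fold, adjusted p = 0.00843). With all 22 libraries in one fit the P2rx7 call was lost, at an adjusted p of 0.0515.

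Art2b also rose, by 0.89 ± 0.24 or 1.85-fold (adjusted p = 0.0312), from means of 45.5 to 73.2 CPM in WT and of 15.9 to 34.9 CPM in KO. The libraries overlapped, and the call was lost in 8 of 12 fits that left out 1 library: with an adjusted p of 0.0925 and 0.0554 without lean WT 1 or 3, of 0.0808 and 0.0782 without lean KO 2 or 3, of 0.0829 and 0.0642 without WT 1 or 3 at 16 weeks, and of 0.0952 and 0.0645 without KO 1 or 3 at 16 weeks. Left without both the library highest in stromal genes (KO 1) and that highest in cytotoxic genes (WT 3), a choice made after seeing the data, the value was 0.74 with an adjusted p of 0.159, and 2 members, P2rx7 and Dpp4, were past the threshold.

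Nt5e, listed because of its rise, was at 158, 72.8 and 82.3 CPM in WT and at 155, 122 and 145 CPM in KO at 16 weeks, 1.00 ± 0.23 above lean on the log2 scale. All 3 KO libraries lay above all lean KO libraries, while WT libraries at 16 weeks overlapped lean ones. At 4 weeks Nt5e was at 141, 53.3 and 110 CPM in WT and 101, 113 and 108 CPM in KO. This difference of 0.78 ± 0.23 from lean did not pass the threshold (edgeR, adjusted p = 0.282), the libraries overlapped, and it is no separate support because it uses the same lean libraries as the rise at 16 weeks. Between 4 and 16 weeks it differed by 0.22 ± 0.22, with no test given.

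Entpd1, the enzyme before Nt5e in the chain, did not rise. It was at 99.1, 99.8 and 259 CPM in WT and at 114, 130 and 140 CPM in KO at 16 weeks (-0.18 ± 0.21, adjusted p = 0.706). Cd38 had means of 52.8 ± 6.39 and 53.1 ± 10.5 CPM at 16 weeks (SD, n = 3 each) against 30.6 ± 8.42 in lean WT and 46.7 ± 8.17 in lean KO, a difference of 0.48 ± 0.16 that edgeR did not call (adjusted p = 0.0742) and DESeq2 did (adjusted p = 0.0465). P2rx4 (-0.06 ± 0.13), Adora2a (0.02 ± 0.14) and Ada (-0.56 ± 0.36) were not past the threshold, and the signs of P2rx4 and Adora2a turned in some alternative fits.

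At 4 weeks of high fat diet edgeR called no gene at all (0% of those tested), and so 0 of 9 members, of which 4 had an unadjusted p under 0.05 and DESeq2 called 0. Those 4 were Dpp4 at 0.85 ± 0.24, Nt5e at 0.78 ± 0.23, P2rx7 at 0.47 ± 0.20 and Entpd1 at -0.45 ± 0.21, with adjusted p from 0.273 to 0.606. The 0% is a share at the adjusted threshold. No share of all genes at an unadjusted p under 0.05 was computed, so nothing is read from the 4. Between 16 and 4 weeks edgeR called 2.12% of genes and 0 of 8 members (2 at an unadjusted p under 0.05, DESeq2 0). The differences with the smallest p there were those of Art2b at 0.69 ± 0.24 (adjusted p = 0.161) and P2rx7 at 0.41 ± 0.19 (adjusted p = 0.339).

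The diet response of Dpp4 looked unlike in the genotypes, but the test of that difference did not pass in the main analysis. Its mean went from 33 ± 12.8 to 41.3 ± 19.3 CPM in WT and from 15.6 ± 3.6 to 72.1 ± 19.5 CPM in KO between lean diet and 16 weeks (SD, n = 3 each). The interaction was 1.86 ± 0.47 on the log2 scale with an adjusted p of 0.242 from edgeR, which called 0% of all genes and 0 of the 7 members other than Art2b and Nt5e (2 at an unadjusted p under 0.05). DESeq2 gave Dpp4 an adjusted p of 0.0498, its 1 member called, and edgeR without the first WT library at 16 weeks gave 0.0442. P2rx7 had an interaction of 0.97 ± 0.39 (adjusted p = 0.485), with KO libraries at 16 weeks all above the WT ones. For transfer against lean, edgeR called 0.0319% of genes and 0 of the 8 members other than Art2b (2 at an unadjusted p under 0.05, DESeq2 0), with Nt5e at 2.24 ± 0.74 (adjusted p = 0.475) and Ada at 1.81 ± 0.85 (adjusted p = 0.68). With single libraries left out these ranged from 1.32 to 4.40 for Nt5e and from 0.91 to 2.54 for Ada.

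Resting and adipose Treg markers shifted at 16 weeks as well. Of the 6 resting T cell genes 3 rose, with sums of 386 to 1310 CPM in WT and 843 to 870 CPM in KO against 423 to 692 CPM on lean diet. Of the 6 adipose Treg genes 5 fell, to sums of 2210 to 5710 CPM. The library with the highest resting sum, the first WT library, was also the WT library with the highest P2rx7, Nt5e and Dpp4. The 5 endothelial genes summed to 117 to 201 CPM in KO at 16 weeks, to 160 CPM in that first WT library and to 50.4 and 62.7 CPM in the other WT libraries, against 39.4 to 75.9 CPM in the lean libraries, and 1 of the 2 tested was called higher. Adipocyte genes, 5 in all, summed to 10.1 to 53.3 CPM in KO and 2.06 to 7.86 CPM in WT at 16 weeks against 1.88 to 4.03 CPM on lean diet, with the 1 tested called higher, and with Lep at 0 in both genotypes and Cfd at 0 in KO at 16 weeks. Sums of class II and dendritic genes were 105 to 169 CPM in KO and 51.1 to 105 CPM in WT at 16 weeks. In the lean libraries they were 35.4 to 114 CPM, a range that holds the WT values at 16 weeks. The 6 stromal genes reached 119 CPM in the first KO library at 16 weeks. The part of these shifts in the values above was not tested.

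Within the 18 diet libraries some members varied together. P2rx7 and Dpp4 had a Pearson r of 0.90 of log2 CPM, Nt5e and Dpp4 of 0.86, and P2rx7 and Nt5e of 0.81, whereas Entpd1 had an r of -0.39 with Nt5e and 0.09 with P2rx7. These are descriptions over libraries that share diets and genotypes. The libraries also include those with the rise of Nt5e for which it was listed. The r values of Nt5e, with members and with the genes named below, are therefore no separate result. Among 9438 genes, Slamf6, a receptor of the SLAM family on lymphocytes, was the one most like Dpp4 (0.95) and also among the 5 most like P2rx7 (0.91), after Rnf43 and Rassf2 at 0.93 and Gprin3 at 0.92. Dpp4 was followed by Pde4b and Gramd3 at 0.90 and Abtb2 and Ttn at 0.89. Nt5e was most like Cd96 (0.90), S1pr1 and Trat1 (0.88), and Nrp1 and Tnfrsf26 (0.87).

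Entpd1 went with another set, Tbx21, the factor of type 1 T cells, at 0.95, the chemokine Ccl5 at 0.88, the cytotoxic granule gene Nkg7 and C1qtnf6 at 0.86, and Il2rb at 0.85. The third WT library at 16 weeks, highest in Entpd1 at 259 CPM, also had the highest sum of 6 cytotoxic T and NK markers, 670 CPM against 99.3 to 369 CPM in the other diet libraries. In that group Cd8a was at 0. What part such cells or such a Treg state have in the Entpd1 level was not tested.

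**Figure D4:**
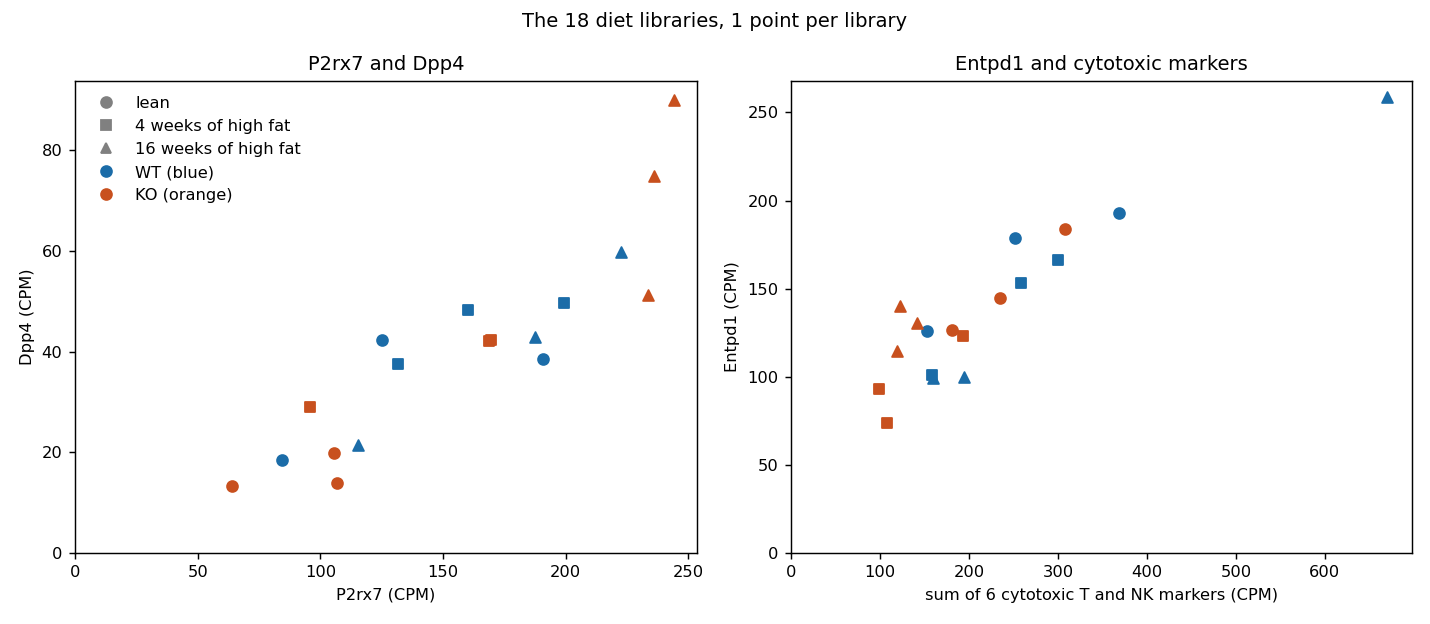
Each point is 1 of the 18 diet libraries, with P2rx7 against Dpp4 on the left and the sum of 6 cytotoxic T and NK markers against Entpd1 on the right, all in TMM-scaled CPM on linear axes from 0. P2rx7 and Dpp4 are high together, up to 244 and 90 CPM in a KO library at 16 weeks, and the WT library with 259 CPM of Entpd1 has 670 CPM of cytotoxic markers.

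The sequence just before the start of P2rx7 and Dpp4, 2 of the 5 genes that fell after transfer, and of P2rx4, which was not called there, is given for comparison (RefSeq, GRCm38.p6, ending at the base before the annotated start and free of annotated exons). The stretches are chr5:122643677-122643910 (plus strand) for P2rx7, chr5:122707294-122707543 (plus strand) for P2rx4 and chr2:62412232-62412481 (minus strand) for Dpp4, all in lower case because no searched motif was found. The P2rx7 stretch is that of its more upstream RefSeq start. Another RefSeq start of P2rx7, with the stretch chr5:122650133-122650382 (plus strand), is not printed, and which start these cells use was not tested.
P2rx7: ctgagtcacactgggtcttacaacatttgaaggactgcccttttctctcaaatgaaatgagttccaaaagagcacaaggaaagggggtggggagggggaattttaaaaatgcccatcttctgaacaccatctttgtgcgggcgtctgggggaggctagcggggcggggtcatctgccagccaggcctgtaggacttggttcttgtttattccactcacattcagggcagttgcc
P2rx4: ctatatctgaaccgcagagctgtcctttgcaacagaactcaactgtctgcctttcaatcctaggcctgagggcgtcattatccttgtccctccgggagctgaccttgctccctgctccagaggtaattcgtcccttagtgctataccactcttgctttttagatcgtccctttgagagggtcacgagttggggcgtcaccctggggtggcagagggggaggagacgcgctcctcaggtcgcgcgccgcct
Dpp4: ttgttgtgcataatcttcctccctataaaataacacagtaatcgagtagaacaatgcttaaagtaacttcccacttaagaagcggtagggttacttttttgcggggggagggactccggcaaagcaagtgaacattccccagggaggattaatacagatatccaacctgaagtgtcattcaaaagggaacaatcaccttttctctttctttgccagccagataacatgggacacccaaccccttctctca

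Windows of 300 bases around 10 RefSeq starts of 8 of the members (Adora2a had no entry) were searched on both strands. The BMAL1-CLOCK E-box CACGTG, found in 7.15% of 32851 promoters of that length, was in 0 of the 10. So were the extended ROR and REV-ERB response element (0.606% of promoters), the cAMP response element TGACGTCA (1.79%) and the direct repeat of the nuclear receptor site with 1 base between (0.0396%). This says only that these letters are not in these windows. For Art2b the stretch before the RefSeq start, chr7:101581180-101581411 (minus strand), lies inside the GENCODE gene. On that strand the GENCODE gene starts at 101585600, and the sequence around that start was not searched. Which start of Art2b these cells use was not tested.

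Levels per kilobase of exon set the genes side by side only roughly. The length was that of all annotated exons of a gene joined, whichever transcripts these cells use. On this scale Entpd1 (29.7 ± 6.35 CPM per kb, SD, n = 3) and Adora2a (29.1 ± 1.42) were highest in lean WT cells. They were followed by P2rx7 (22.3 ± 9.01), Art2b (16.1 ± 3.86), P2rx4 (10.9 ± 2.75), Nt5e (7.91 ± 1.86), Cd38 (7.87 ± 2.16), Dpp4 (5.23 ± 2.03) and Ada (4.22 ± 2.03). The steps from Art2b to P2rx4, from P2rx4 to Nt5e and from Cd38 to Dpp4 were larger than the SD of either gene, and the other neighbours were closer than the larger SD. In KO cells at 16 weeks P2rx7 was first, at 39.9 ± 0.936 CPM per kb. In transferred cells Adora2a was first, at 26.7 ± 8.02 (WT) and 25.9 ± 6 (KO, n = 2 each), and P2rx7, at 0.877 ± 1.11 and 0.51 ± 0.452, was among the lowest.

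**Figure D5:**
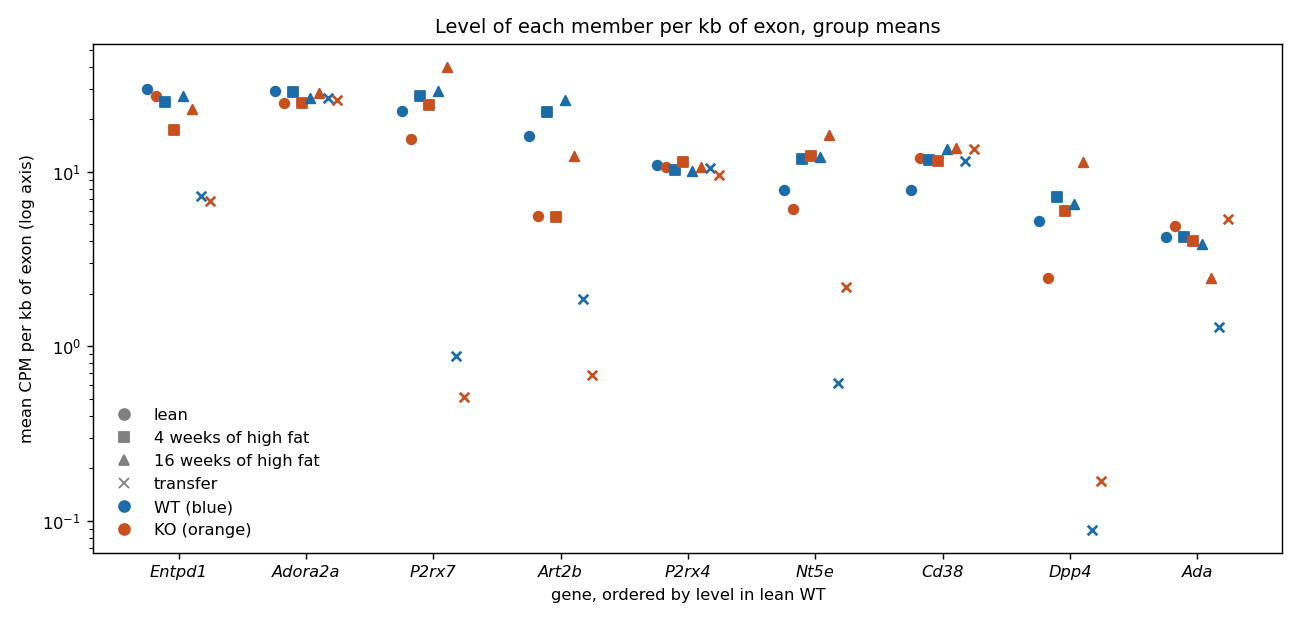
Mean CPM per kb of exon (y axis, log scale) of the 9 genes (x axis, ordered by lean WT), with 1 point per group, shape for diet or transfer and colour for genotype. Adora2a and P2rx4 keep their level in all groups, while the transfer groups lie far below the rest for P2rx7, Art2b, Nt5e and Dpp4.

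The other genes of these pathways were taken from lists of receptors, ectonucleotidases, adenosine clearance, NAD handling, ATP release or shedding, and cAMP signalling below the adenosine receptors. Of 85 listed genes that are no members, 54 were tested in the diet libraries. None was called between KO and WT by edgeR or DESeq2 in any diet, in their average or after transfer, with 3 to 7 at an unadjusted p under 0.05. The adenosine receptors Adora1, Adora2b and Adora3 all stayed below the filter on low counts, so Adora2a was the adenosine receptor gene measured here.

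After 16 weeks 7 of the 54 were higher and 1 lower than on lean diet, where over all genes 6.63% were called and 2.92% were higher, with a median log2 fold change of 0.10 over the 54 against 0 over all genes. P2ry10, a receptor of the P2Y family by sequence, went from 193 ± 30.3 to 278 ± 30.4 CPM (SD, n = 6 each), 0.52 ± 0.11 on the log2 scale (adjusted p = 0.00586), with all 6 libraries above the lean ones. Adk, the kinase that returns adenosine to AMP, rose by 0.61 ± 0.15 (adjusted p = 0.0139). In the cAMP list the repressor gene Crem rose by 0.50 ± 0.11 (adjusted p = 0.00654) and the phosphodiesterase Pde4d by 0.74 ± 0.18 (adjusted p = 0.0131).

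The remaining calls at 16 weeks depended on which libraries were in the fit. Naprt (0.89), Art3 (2.60) and Pde4b (0.62) were higher and Prkar2a (-0.69) lower, with adjusted p from 0.0293 to 0.0474. Of 12 fits leaving out 1 library the call was lost in 7 for Naprt, 11 for Art3, 7 for Pde4b and 10 for Prkar2a, with adjusted p up to 0.112. Art3 had a mean of only 3.84 ± 1.28 CPM at 16 weeks and of 0.56 ± 0.642 CPM on lean diet (SD, n = 6 each). The lean mean is under the level of 3 counts in a diet library, 0.842 to 1.6 CPM. Art3 thus cannot have passed the low-count filter through the lean libraries, and its place among the genes counted above as higher is only a description.

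After transfer 6 of 57 tested list genes were higher and 9 lower than in resident lean cells, where over all genes 16.2% were called and 8.81% were lower, with a median of -0.19 over the 57 against -0.02 over all genes. Slc28a2, a concentrative nucleoside transporter, went from 88 ± 24 CPM (SD, n = 6) to 34.3 ± 3.64 CPM (n = 4), a fall of 1.34 ± 0.22 on the log2 scale (adjusted p = 0.000199). Cd27, a costimulatory receptor that can be shed from the surface, also fell (-0.59 ± 0.14, adjusted p = 0.00652).

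Of the ectonucleotidase list Entpd6 fell (-0.55 ± 0.14, adjusted p = 0.00793). In the cAMP list Crem rose (0.75 ± 0.11, adjusted p = 7.62e-05), while Pde4b (-1.11 ± 0.20, adjusted p = 0.000623) and the catalytic subunit gene Prkacb (-0.50 ± 0.11, adjusted p = 0.00256) fell. Nadk (0.49), Prkar1a (0.28), P2ry14 (0.97), Enpp4 (0.58) and Prkaca (0.56) were also higher, and Entpd5 (-0.50), Nadsyn1 (-0.74) and Adam10 (-0.45) lower. Of 10 fits leaving out 1 library, the call of Nadk was lost in 1, that of Prkar1a in none, and those of the other 6 in 5 to 9.

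The remaining members lie on mm10 chromosome 19 from 40612366 to 40741602 (Entpd1), 9 from 88327197 to 88372092 (Nt5e), 10 from 75316877 to 75334784 (Adora2a), 2 from 163726584 to 163750239 (Ada) and 5 from 43868553 to 43912375 (Cd38). P2rx7 shares 119 exonic bases with Mir8115 on the same strand.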

How the data were processed

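RNA-seq counts of 22 libraries were analysed. Per the labels' protocols, polyadenylated RNA was primed with oligo(dT), amplified and fragmented by transposase, and sequenced as paired 38-base reads. STAR 2.7.3a, featureCounts and mm10 were used, per the submitters' processing notes. The deposited table holds integer counts per gene symbol, with no scaling stated; the sources used here give neither strand setting nor annotation. Of its 55011 symbols 53009 (96.4%) were found in GENCODE M21, used for positions and exon lengths.

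Groups came from the labels. Tests were edgeR 4.0.16 quasi-likelihood tests after TMM scaling (R 4.3.3, filterByExpr with a minimum count of 10, Benjamini-Hochberg over all genes tested, threshold 0.05). Diet comparisons used 18 libraries (11698 genes), KO against WT after transfer 4 (11715) and transfer against lean all 22 (12523). Log2 CPM for correlations had a prior count of 2, over genes with a mean of at least 5 CPM. Members, pathway lists and tests were chosen with earlier results of these data known. The text names all members, and list genes past the threshold, up to 6 a list and comparison by smallest p; 1 such gene is counted but not reported here by name. The tests were checked on simulated data. No library was left out. Alternatives were DESeq2 1.42.0, other scalings, no low-count filter, other sets of libraries, a replicate block and leaving out each library. Counts in replicates differed by more than sampling noise in every pair.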

Additional observations from a re-analysis of the deposited data

How the results depend on the processing

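The direction of every called member held in all alternatives run: scaling by RLE or total count, DESeq2, no filter on low counts, a replicate block, other sets of libraries and leaving out each library. The falls of Art2b, P2rx7, Entpd1 and Nt5e after transfer stayed called in all 16 alternatives. So did that of Dpp4, but it entered the test through the resident libraries, so this is only a description. Counts of called members moved as follows, for causes not tested. Without the low-count filter, 1 member instead of 0 was called for KO against WT on lean diet (Dpp4), 4 instead of 0 at 4 weeks against lean, 2 instead of 0 at 16 against 4 weeks, 2 instead of 0 for the 16 week interaction and 1 instead of 0 for the transfer interaction. DESeq2 called 1 in the 16 week interaction, and leaving out single libraries gave 0 to 1 there.

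Reversed values were all near 0 and uncalled. P2rx4 at 16 weeks turned to 0.01 with total count only, to 0.05 without lean WT 3, to 0.02 without KO 1 at 16 weeks and to 0.03 without the 2 libraries of 16 weeks high in stromal and cytotoxic genes; after transfer it was 0.01 without lean WT 3, in a range of -0.17 to 0.01 over single libraries left out. Adora2a after transfer turned to 0.02 without the filter, 0.04 with a replicate block, 0.07 without lean KO 1, 0.10 without transferred WT 1 and 0.08 without transferred KO 2, in a range of -0.21 to 0.10. At 16 weeks it ranged from -0.05 to 0.13 when single libraries were left out, at -0.03, -0.01, 0 and -0.05 without lean KO 2 or 3 or without WT 1 or KO 3.

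Counts over all genes moved by over 1.5 times for KO against WT on lean diet (from 5 to 24 with DESeq2 and 135 unfiltered), at 4 weeks (8 to 75 unfiltered), at 16 weeks (5 to 47 and 428), on average (21 to 38 and 273) and after transfer (20 to 61 and 102), for 4 weeks (0 to 47 and 161) and 16 against 4 weeks (248 to 391 and 536), and for the interactions at 4 weeks (0 to 22 unfiltered), 16 weeks (0 to 26 and 258) and transfer (4 to 21 and 109). At 16 weeks against lean, 776 became 483 without WT 1 of 16 weeks, 488 without lean WT 1 and 509 without KO 1 of 16 weeks. Single libraries left out moved other counts by over 1.5 times. KO against WT on lean diet went to 11 without lean WT 1, in a range of 4 to 11. At 4 weeks it was 4 or 5 without any of its libraries but WT 2 (range 4 to 6), and at 16 weeks 35 without WT 1 (range 4 to 35). For 4 weeks against lean, 0 became 2 without lean WT 2, 1 without WT 1 and 4 without WT 2 of 4 weeks. For 16 against 4 weeks, 248 became 147 and 142 without KO 1 or 3 of 4 weeks, 157, 425 and 160 without WT 1, 2 or 3 of 16 weeks and 114 without KO 1 of 16 weeks. The 16 week interaction went from 0 to 36 without WT 1 of 16 weeks and 15 without lean WT 1. With total count only, the median of all genes after transfer shifted to -0.13.

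Same-numbered libraries did not deviate together (correlations from -0.04 to 0.10), so no pairing by number was seen. With so few libraries per group this check can miss a pairing. With a replicate block, members called stayed at 3 for 16 weeks, 5 for transfer and 0 elsewhere, and all genes called after transfer for KO against WT went from 20 to 40. Depth limits Dpp4, P2rx7 and Art2b after transfer, each with at most 45 counts in a library.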
